A study of Homo sapiens with 6 samples.

Results

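The 8 genes described here are transcription factors and cofactors of the embryonic kidney: PAX2, PAX8, LHX1, SALL1, SIX2, WT1, EYA1 and GATA3. They were picked by name from the 60564 genes of a raw count table, and each name matched 1 gene. The libraries come from HEK293, an established cell line grown from human embryonic kidney and transformed with adenovirus DNA. In 3 libraries the cells stably overexpressed SFXN2, a sideroflexin carrier of the mitochondrial membrane (titles OE_HA), and in 3 they were wild type (titles NC_HA). The labels give no treatment, time point, vector, clone number or tag control, and do not say whether replicates were separate cultures, so p-values measure the spread between these libraries, which may be technical. The comparison asks how transcripts differ when SFXN2 is raised, and the absolute levels of the kidney factors serve as a check of the identity of the line.

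The kidney grows from the intermediate mesoderm, where PAX2, PAX8 and LHX1 mark the nephric duct and GATA3 acts in the duct and its branches, the ureteric bud. The bud invades the metanephric mesenchyme, whose nephron progenitors are held in their state by SIX2, with EYA1, SALL1 and WT1 active in the same mesenchyme. WT1 later becomes a factor of the podocyte, the filtering cell of the glomerulus. In adult kidney, PAX8 persists in many tubular epithelia and GATA3 in the distal nephron and collecting duct.

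In GENCODE 29 on build GRCh38, PAX2 lies at chr10:100735603-100829941 and GATA3 at chr10:8045378-8075203, both on the plus strand, as does LHX1, at chr17:36936785-36944612. PAX8 lies at chr2:113215997-113278950, SIX2 at chr2:45005161-45009430, SALL1 at chr16:51135975-51151367 and WT1 at chr11:32387775-32435630, all on the minus strand. All 8 factors, EYA1 included, are protein-coding genes.

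PAX2 and PAX8 are sister genes with closely related DNA-binding paired domains, and in these cells PAX2 was found in every library and PAX8 hardly at all. The bases upstream of their RefSeq start sites, and of that of SIX2, which had the largest fold change of the 7 tested factors, are shown for that reason. Each is taken from the RefSeq promoter table of build GRCh38.p14, is given 5′ to 3′ on the gene's strand, and ends before the first annotated exon base. Capitals mark CpG dinucleotides, the sites of DNA methylation. The first PAX2 window is chr10:100735146-100735395 and the second chr10:100745332-100745581 (plus strand). The PAX8 window is chr2:113278951-113279171 and the SIX2 window chr2:45009453-45009702 (minus strand).
PAX2 first start: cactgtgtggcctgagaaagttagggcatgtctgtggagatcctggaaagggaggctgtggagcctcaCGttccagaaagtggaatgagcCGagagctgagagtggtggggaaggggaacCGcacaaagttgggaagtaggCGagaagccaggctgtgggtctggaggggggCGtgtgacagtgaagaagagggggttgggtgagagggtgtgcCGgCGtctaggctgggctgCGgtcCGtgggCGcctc
PAX2 second start: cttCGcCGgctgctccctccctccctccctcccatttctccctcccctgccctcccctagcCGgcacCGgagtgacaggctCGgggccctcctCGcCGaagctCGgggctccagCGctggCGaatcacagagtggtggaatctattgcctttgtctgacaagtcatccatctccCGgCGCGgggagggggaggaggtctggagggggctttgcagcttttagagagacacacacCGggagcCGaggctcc
PAX8: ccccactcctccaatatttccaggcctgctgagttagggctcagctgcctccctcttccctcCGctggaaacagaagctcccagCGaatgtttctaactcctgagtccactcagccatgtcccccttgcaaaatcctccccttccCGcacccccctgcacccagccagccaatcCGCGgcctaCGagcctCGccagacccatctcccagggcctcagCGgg
SIX2: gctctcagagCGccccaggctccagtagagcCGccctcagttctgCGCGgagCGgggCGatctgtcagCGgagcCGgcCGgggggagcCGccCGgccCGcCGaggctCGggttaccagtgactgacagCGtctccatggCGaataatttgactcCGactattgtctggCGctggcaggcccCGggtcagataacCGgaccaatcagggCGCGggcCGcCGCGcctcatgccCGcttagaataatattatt

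In the full 250 upstream bases, the PAX2 windows held 10 and 15 CpG, the PAX8 window 11 and the SIX2 window 26, against a median of 11 over 35116 RefSeq promoter windows. The letters CCAAT, searched on both strands, occurred in the PAX8 and SIX2 windows and in neither PAX2 window, and in 32.0% of all windows. The letters TATAA occurred in none of these 4 windows and in 18.9% of all. The nearly silent PAX8 and the expressed PAX2 thus had similar numbers of CpG. A match is a description of these letters and no evidence of a bound factor. RefSeq windows for WT1 and GATA3 were matched too and are not printed. LHX1, SALL1 and EYA1 had no entry in the table used.

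Transcripts of 7 of the 8 factors were present in every library, and PAX8 was nearly absent. Levels are given in TPM, a count divided by the exon length of the gene and scaled to a common total, so that genes can be compared. SALL1, a zinc finger repressor of the mesenchyme, stood at 29.2, 29.3 and 27.7 TPM in overexpression replicates 1, 2 and 3, against 31.1, 29.4 and 28.5 TPM in wild-type replicates 1, 2 and 3. GATA3 followed at 26.9, 30.6 and 26.2 TPM with overexpression, against 30.1, 27.8 and 30.03 TPM in wild type. These were the highest of the factors in every library, and their order changed from library to library, so they could not be ranked.

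A middle group held LHX1, SIX2 and WT1. LHX1, a LIM homeodomain factor of the duct, averaged 8.96 ± 1.02 TPM with overexpression and 9.65 ± 0.53 TPM in wild type (SD, n = 3 each). SIX2, the homeodomain factor of nephron progenitors, averaged 8.44 ± 1.90 TPM with overexpression and 10.2 ± 0.71 TPM in wild type (SD, n = 3 each). WT1, a zinc finger factor lost in some Wilms tumours, averaged 8.15 ± 0.31 TPM with overexpression and 8.69 ± 1.10 TPM in wild type (SD, n = 3 each). These 3 genes also changed places between libraries, within their spread.

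EYA1 and PAX2 came next in that order in all 6 libraries. EYA1, a phosphatase and coactivator that binds SIX2 and its relatives, stood at 4.78, 6.09 and 4.59 TPM with overexpression, against 4.72, 4.89 and 4.98 TPM in wild type. PAX2 stood at 2.81, 2.56 and 2.33 TPM with overexpression, against 2.78, 3.48 and 2.62 TPM in wild type. The highest PAX2 value was thus below the lowest EYA1 value. Within a library SALL1 was 8.44 to 11.9 times the PAX2 level. With the length of the longest transcript in place of all exons, EYA1 averaged 8.65 TPM with overexpression and 8.16 TPM in wild type, close to WT1, at 8.27 TPM with overexpression and 8.81 TPM in wild type. The place of EYA1 thus depends on the length used.

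**Figure D1:**
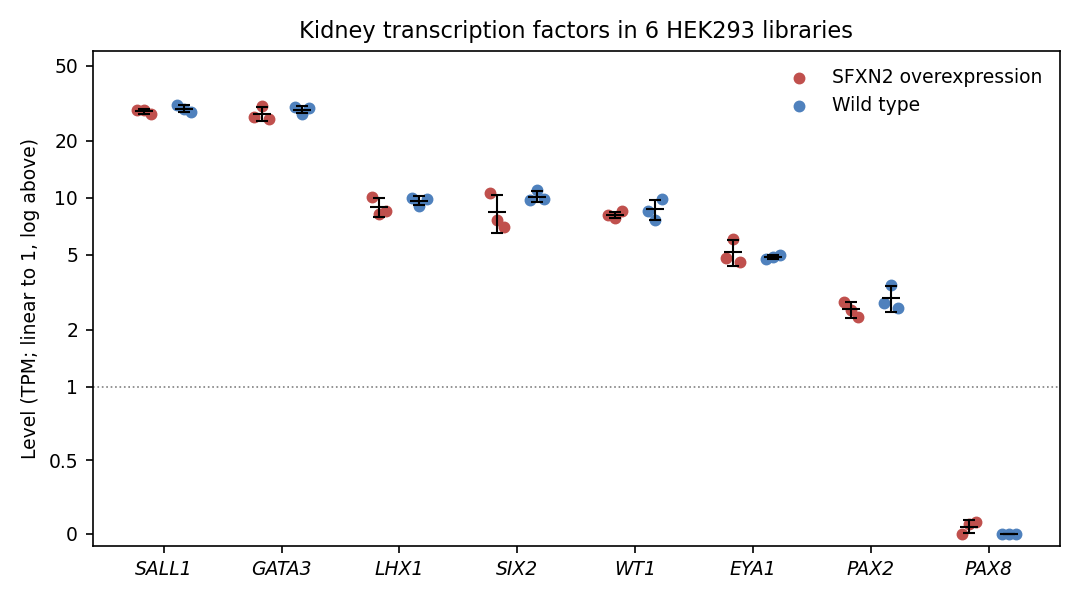
Level of each factor (TPM, linear to 1 and logarithmic above) in the overexpression and wild-type libraries, with the mean and SD of 3 libraries per group; the dotted line marks 1 TPM. SALL1 and GATA3 lie highest, PAX2 is the lowest of the 7 factors above the line, and PAX8 lies at or near 0.

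Of the 8 factors, 7 (87.5%) reached 1 TPM in every library, against 62.1% of 19887 protein-coding genes. The median over the 8 factors was 8.86 TPM, against 7.45 TPM over protein-coding genes. The 7 factors lay between percentile 39.7 (PAX2) and percentile 75.5 (SALL1) of protein-coding genes in overexpression libraries, and between percentiles 41.1 and 75.9 in wild-type libraries. The factors were therefore expressed near the middle of the range of coding genes, with SALL1 and GATA3 in its upper part.

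PAX8 had 0, 8 and 10 counts in overexpression replicates 1, 2 and 3, and 0 counts in each wild-type library. The 8 and 10 counts equal 0.145 CPM (95% exact Poisson interval 0.0628 to 0.287) and 0.164 CPM (0.0785 to 0.301), where CPM is the count scaled to a common library size after TMM normalisation. By the same interval, the 0 counts allow up to 0.0896 to 0.117 CPM in the wild-type libraries and 0.095 CPM in overexpression replicate 1. At a floor of 3 counts these limits are 0.0729 to 0.095 CPM and 0.0772 CPM. The exact intervals overlap between all libraries, but intervals of single libraries do not compare the groups. Summed by group, PAX8 had 18 counts with overexpression and 0 in wild type. The overexpression group was at 4.19 times a floor of 3 counts over the whole wild-type group, which equals 0.0277 CPM. Overexpression replicate 1, like the wild-type libraries, had no PAX8 count. Such intervals and floors hold for counting error alone, because reads lacking molecular identifiers need not be separate molecules.

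PAX8 did not pass the filter on low counts and was not tested with the others. With no filter its unadjusted p was 0.0259 and its adjusted p 0.807 in edgeR (quasi-likelihood, adjusted by Benjamini-Hochberg over all genes), not past the threshold of 0.05. Its antisense neighbour PAX8-AS1, which shares 685 exon bases with it, had 9, 16 and 9 counts with overexpression and 9, 4 and 9 in wild type. Because strand was not recorded by the kit, reads in that overlap cannot be told apart. In all, 97 genes shared the PAX8 pattern of no count in the wild-type libraries and overexpression replicate 1 and 5 or more in overexpression replicates 2 and 3. Of the lists described below, SLC3A1, an amino acid transporter of the proximal tubule, and STMN2, a neuronal tubulin-binding protein, were among them. Overexpression replicates 2 and 3 also had the most genes with a count, 28985 and 29154, against 25010 in overexpression replicate 1 and 24466 to 26127 in wild type. Their total counts were 52958006 and 59963713, against 32121527 to 41217867 in the other 4 libraries. The part of depth in the PAX8 counts was not tested.

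SFXN2 itself checked the labels: it averaged 1734 CPM with overexpression and 36.3 CPM in wild type. Beside it, only the read-through gene model C1QTNF3-AMACR passed, so 2 of 18797 genes, or 0.0106%, passed an adjusted p of 0.05 in edgeR. DESeq2 passed 9 genes, and a fit blocked on replicate number passed 1. None of the 7 tested kidney factors passed (0 at an unadjusted p below 0.05, against 4.76% of all tested genes, and 0 in DESeq2 and in limma-voom), with adjusted p between 0.93 and 0.977. The CPM ranges of the groups overlapped for all 7, while 9.16% of all tested genes had ranges that did not overlap (4.91% higher and 4.25% lower with overexpression). In bulk RNA, fewer cells that express a gene and less RNA per cell cannot be told apart.

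The mesenchymal and progenitor factors are given first, in CPM per library. SIX2 had 7.13, 4.75 and 4.39 CPM with overexpression, against 6.204, 7.26 and 6.31 CPM in wild type, in the order of replicates 1, 2 and 3. Overexpression replicates 2 and 3 lay below every wild-type library, and overexpression replicate 1 lay within the wild-type range. This gave a log2 fold change of -0.29 with an SE of 0.23 and a 95% interval of -0.80 to 0.23 (edgeR adjusted p = 0.93). Without overexpression replicate 1 it was -0.53 (unadjusted p = 0.0321, adjusted p = 0.383 by edgeR).

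SALL1 had 50.5, 46.6 and 44.2 CPM with overexpression, against 51.1, 49.8 and 46.9 CPM in wild type. Its log2 fold change came to -0.065 (SE 0.097, 95% interval -0.28 to 0.15), the narrowest interval of the 7. WT1 had 10.1, 9.09 and 9.85 CPM with overexpression, against 10.2, 9.45 and 11.8 CPM in wild type, and a log2 fold change of -0.11 (95% interval -0.47 to 0.24). The WT1 value was -0.021 without wild-type replicate 3 and -0.19 without wild-type replicate 2. SALL1 and WT1 were lower with overexpression in 3 of 3 same-numbered pairs, and a fit blocked on the replicate number gave adjusted p of 0.802 for SALL1 and 0.814 for WT1 (edgeR). EYA1 had 13.7, 16.1 and 12.2 CPM with overexpression, against 12.9, 13.8 and 13.7 CPM in wild type. It alone of the 7 had a positive log2 fold change, 0.057 (95% interval -0.27 to 0.39), which became negative, at -0.060, without overexpression replicate 2.

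The factors of the duct and ureteric bud follow. PAX2 had 5.36, 4.49 and 4.11 CPM with overexpression, against 5.03, 6.51 and 4.75 CPM in wild type. Wild-type replicate 2 was the highest library and overexpression replicate 3 the lowest, and the log2 fold change came to -0.23 (SE 0.22, 95% interval -0.72 to 0.26). Without wild-type replicate 2 it was -0.076. LHX1 had 15.1, 11.3 and 11.8 CPM with overexpression, against 14.2, 13.2 and 14.1 CPM in wild type. Here overexpression replicate 1 was the highest of all 6 libraries and the other 2 overexpression libraries were the lowest, with a log2 fold change of -0.13 (95% interval -0.47 to 0.22). The LHX1 value was -0.27 without overexpression replicate 1 and -0.050 without overexpression replicate 2. GATA3 had 28.2, 29.6 and 25.4 CPM with overexpression, against 30.01, 28.7 and 30.02 CPM in wild type, and a log2 fold change of -0.093 (95% interval -0.33 to 0.15).

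**Figure D2:**
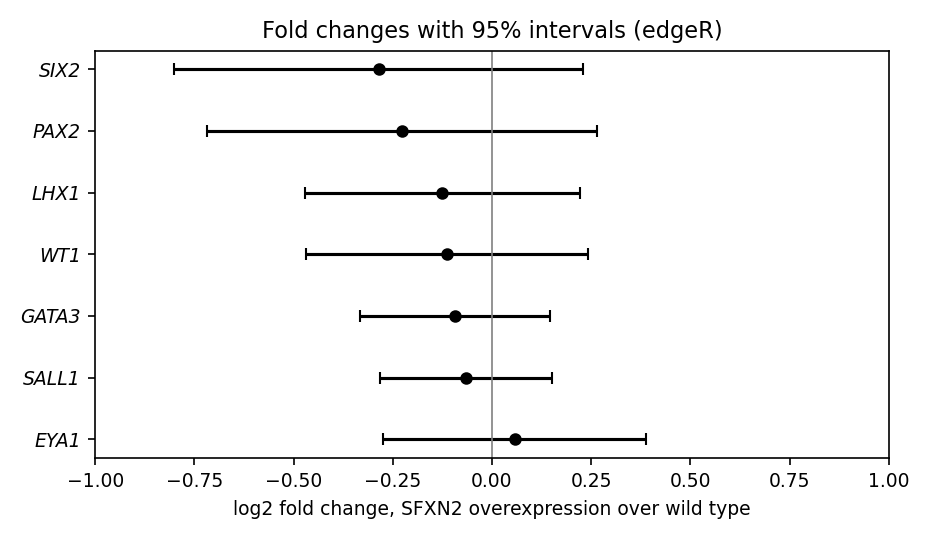
Log2 fold changes of the 7 tested factors, overexpression over wild type, with 95% intervals from edgeR. Every interval includes 0 and lies within -1 to 1; SIX2, at -0.29, and PAX2, at -0.23, lie farthest to the left.

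The 95% intervals of all 7 tested factors lay within -1 to 1 on the log2 scale, as for 72.6% of all tested genes. Their median log2 fold change was -0.11, against 0.0060 over all tested genes, and 6 of 7 were below 0, against 48.8% of all tested genes. These values describe the genes in these libraries and were not tested as a set. For 4 of the 7, SIX2, PAX2, LHX1 and SALL1, overexpression replicates 2 and 3 were the 2 lowest libraries, which was so for 12.3% of all tested genes. The SALL1 margin was small, with 46.62 CPM in overexpression replicate 2 against 46.88 CPM in wild-type replicate 3. In TPM the pattern held for SIX2, PAX2 and LHX1 only, 3 of 7, against 7.28% of the 18578 tested genes with a length. It was noticed in the data and was not tested.

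**Figure D3:**
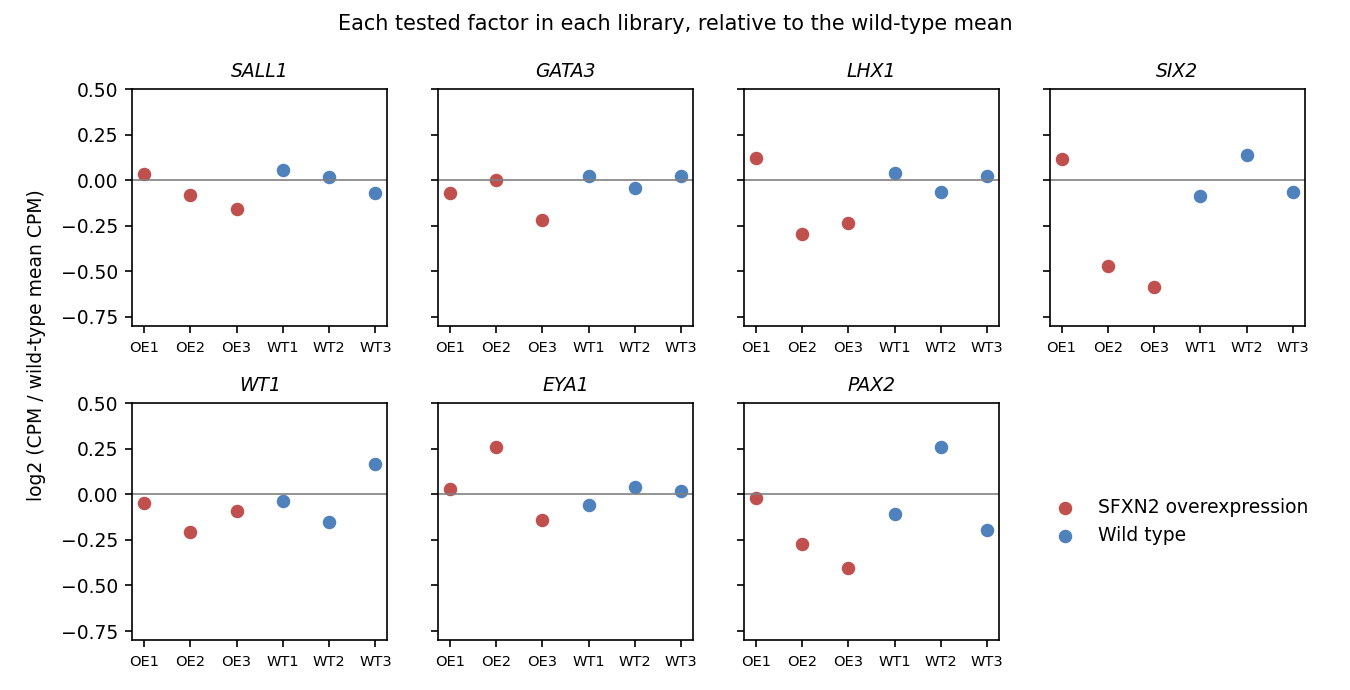
Level of each tested factor in each library on the log2 scale, relative to the wild-type mean CPM; OE1 to OE3 are the overexpression libraries and WT1 to WT3 the wild-type libraries. OE2 and OE3 are the lowest points for SALL1, LHX1, SIX2 and PAX2, and OE1 lies near the wild-type points.

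Between the factors, the pattern over libraries was alike to different degrees. The measure was the root-mean-square difference of log2 CPM, each gene centred on its own mean over the 6 libraries. From SALL1, the nearest factor was GATA3, at 0.074, and the farthest SIX2, at 0.21. The tested genes nearest to SALL1 were MLXIP, NBPF9 and ELF2, at 0.0090, 0.016 and 0.019. SALL1 varied little, and 2339 genes (12.4% of those tested) lay within 0.1 of it. From SIX2, the nearest factor was PAX2, at 0.14, and the farthest EYA1, its binding partner, at 0.30. Among the genes nearest to SIX2 were EMILIN3 and HMG20B, at 0.031 and 0.051, and 93 genes lay within 0.1.
For EMILIN3 the overexpression libraries held 15.9, 10.96 and 10.3 CPM, and the wild-type libraries 13.8, 16.5 and 14.8 CPM. Its lowest libraries, as for SIX2, were overexpression replicates 2 and 3. EMILIN3 was picked for its likeness to SIX2 over these same libraries, so this match adds nothing to it.

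The factors shared little sequence with other genes. PAX2, SIX2 and GATA3 shared no stretch of 50 bases with the transcripts of any other gene in GENCODE 29, so PAX2 and PAX8 share none. The shares were 0.583% for SALL1 (with the pseudogene SALL1P1), 1.51% for WT1 (with WT1-AS), 2.79% for EYA1, 5.90% for PAX8 and 6.56% for LHX1. WT1-AS, a noncoding RNA on the opposite strand of the WT1 promoter, had 35, 36 and 43 counts with overexpression and 47, 47 and 34 in wild type, where WT1 had 394 to 602 counts with overexpression and 323 to 417 in wild type. Its log2 fold change was -0.67 (95% interval -1.43 to 0.087, adjusted p = 0.93 by edgeR). GATA3-AS1 had 37, 26 and 42 counts with overexpression and 25, 19 and 20 in wild type (log2 fold change 0.21, adjusted p = 0.97 by edgeR). The antisense gene AC243773.2 beside LHX1 had 253, 286 and 281 counts with overexpression and 174, 213 and 174 in wild type, and shares no exon base with it (log2 fold change 0.062).

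In each family at least 1 relative averaged more than the factor of that family. From here on, values after ± are SDs over 3 libraries. Among 34 relatives, 21 reached 1 TPM in every library. In the PAX family, PAX3, a factor of neural crest and muscle, led with 9.06 ± 0.69 TPM with overexpression and 8.42 ± 0.56 TPM in wild type (SD, n = 3 each), and PAX9 stood at 6.44 ± 0.59 TPM with overexpression and 7.604 ± 0.84 TPM in wild type. SIX4, a relative of SIX2, stood at 17.3 ± 0.78 TPM with overexpression and 17.3 ± 1.81 TPM in wild type. EYA3 and EYA4 stood at 31.4 ± 1.46 and 25.7 ± 0.61 TPM with overexpression, against 28.4 ± 5.38 and 26.6 ± 0.14 TPM in wild type. SALL2 stood at 45.6 ± 0.90 TPM with overexpression and 49.6 ± 3.73 TPM in wild type, and SALL3 at 7.36 ± 0.19 TPM with overexpression and 8.08 ± 0.14 TPM in wild type. GATA6, GATA4 and GATA2 stood at 35.7 ± 0.44, 17.2 ± 0.94 and 13.7 ± 1.12 TPM with overexpression, against 35.4 ± 4.76, 17.2 ± 0.81 and 15.1 ± 0.51 TPM in wild type, and LHX9 at 1.05 ± 0.16 TPM with overexpression and 1.37 ± 0.42 TPM in wild type. ISL2 and LMX1B led the LIM homeodomain relatives, at 23.0 ± 1.84 and 14.1 ± 1.45 TPM with overexpression, against 22.3 ± 1.77 and 14.8 ± 1.63 TPM in wild type. GATA1, a blood factor, had no count in any library. Of 28 tested relatives, 0 passed in edgeR, DESeq2 or limma-voom, and 1 of 28, SIX5, had an unadjusted p below 0.05, against 4.76% of all tested genes, with a log2 fold change of -0.49 (adjusted p = 0.93 by edgeR). Their median was -0.14, with 23 below 0.

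Genes whose proteins work with the factors were mostly abundant. LDB1, which bridges LIM homeodomain proteins such as LHX1, stood at 93.2 ± 4.20 TPM with overexpression and 102 ± 7.88 TPM in wild type. HDAC1, a deacetylase of the NuRD complex that SALL1 recruits, stood at 186 ± 19.9 TPM with overexpression and 194 ± 20.4 TPM in wild type, and PAGR1, a partner of the PAX-interacting protein PAXIP1, at 174 ± 16.3 TPM with overexpression and 188 ± 21.96 TPM in wild type. BASP1, a WT1 corepressor, stood at 241 ± 48.3 TPM with overexpression and 224 ± 32.2 TPM in wild type. EGR1, a growth-induced relative of WT1, varied most, at 137 ± 194 TPM with overexpression and 260 ± 440 TPM in wild type (SD, n = 3 each). With overexpression EGR1 had 2.61, 359 and 48.9 TPM in replicates 1, 2 and 3. In wild type it had 3.40, 768 and 9.13 TPM in the same order. Replicate 2 was thus the highest in both groups. MTA1, another NuRD subunit, stood at 64.6 ± 1.80 TPM with overexpression and 78.1 ± 14.2 TPM in wild type, and WTAP, a WT1-binding protein, at 66.8 ± 6.99 TPM with overexpression and 57.7 ± 4.91 TPM in wild type. Of 17 tested genes of these 2 lists, 0 passed in edgeR, DESeq2 or limma-voom, and 0 had an unadjusted p below 0.05.

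Lists of kidney cell types are described by the share of genes that reached 1 TPM. Of 20 nephron progenitor genes other than the factors, 17 (85.0%) reached 1 TPM in every library, with a median level of 11.7 TPM. HEY1, a Notch target, and HOXD10 led them, at 73.0 ± 2.56 and 72.1 ± 2.19 TPM with overexpression, against 69.9 ± 14.5 and 85.8 ± 2.51 TPM in wild type. HOXA11 and HOXD11, paralogous factors needed for metanephric growth, stood at 38.3 ± 4.34 and 42.7 ± 0.87 TPM with overexpression, against 40.1 ± 6.10 and 47.7 ± 2.10 TPM in wild type. CITED1, a cofactor of uncommitted progenitors, stood at 5.99 ± 0.35 TPM with overexpression and 6.19 ± 0.95 TPM in wild type, and OSR1, an early intermediate mesoderm factor, at 3.06 ± 0.26 TPM with overexpression and 3.39 ± 0.61 TPM in wild type. Of 24 inductive signals and their receptors, 17 (70.8%) reached 1 TPM, led by SLIT2 at 63.8 ± 6.93 TPM with overexpression and 68.1 ± 15.8 TPM in wild type, and NOTCH2, at 44.7 ± 0.77 TPM with overexpression and 45.4 ± 5.05 TPM in wild type. GDNF, the mesenchymal signal that draws out the ureteric bud, averaged 2.98 ± 1.49 TPM with overexpression and 3.05 ± 2.25 TPM in wild type.

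Among the other kidney lists, which hold ureteric bud, nephron segment and stromal genes, the shares differed. Of 22 ureteric bud and collecting duct genes, 8 (36.4%) reached 1 TPM, led by TFAP2A at 31.6 ± 4.83 TPM with overexpression and 36.2 ± 2.14 TPM in wild type, and SOX9, at 24.98 ± 1.00 TPM with overexpression and 22.4 ± 2.25 TPM in wild type. GFRA1, the GDNF coreceptor, stood at 9.01 ± 1.98 TPM with overexpression and 12.2 ± 2.64 TPM in wild type. The water channel AQP2 averaged 0.010 TPM with overexpression and 0 TPM in wild type. Of 18 podocyte genes, 10 (55.6%) reached 1 TPM, led by FOXC1 at 97.1 ± 7.63 TPM with overexpression and 109 ± 14.5 TPM in wild type, and CD2AP, at 72.7 ± 3.74 TPM with overexpression and 72.8 ± 9.45 TPM in wild type. CLIC5 stood at 1.77 ± 0.28 TPM with overexpression and 1.22 ± 0.20 TPM in wild type. The slit diaphragm gene NPHS1 stood at 0.332 ± 0.17 TPM with overexpression and 0.107 ± 0.03 TPM in wild type. Of 20 proximal tubule genes, 3 (15.0%) reached 1 TPM: GGT1, DAB2 and the endocytic receptor LRP2, while SLC22A8 and SLC22A2 had no count in any library. LRP2 stood at 8.26 ± 2.29 TPM with overexpression and 10.9 ± 1.16 TPM in wild type. Of 14 loop and distal tubule genes, 3 (21.4%) reached 1 TPM, led by POU3F3 at 39.8 ± 2.44 TPM with overexpression and 46.6 ± 6.77 TPM in wild type and EGF at 2.42 ± 0.47 TPM with overexpression and 1.77 ± 0.58 TPM in wild type, and UMOD, IRX1, IRX2 and CLDN16 had no count. Of 14 stromal genes, 6 (42.9%) reached 1 TPM, among them ACTA2, a smooth muscle actin, at 25.9 ± 9.27 TPM with overexpression and 24.7 ± 11.5 TPM in wild type, MEIS2, at 8.51 ± 0.81 TPM with overexpression and 9.42 ± 0.36 TPM in wild type, TBX18, at 21.3 ± 0.20 TPM with overexpression and 22.1 ± 1.77 TPM in wild type, and FOXD1, which marks stromal progenitors, at 20.5 ± 1.63 TPM with overexpression and 18.3 ± 1.06 TPM in wild type.

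**Figure D4:**
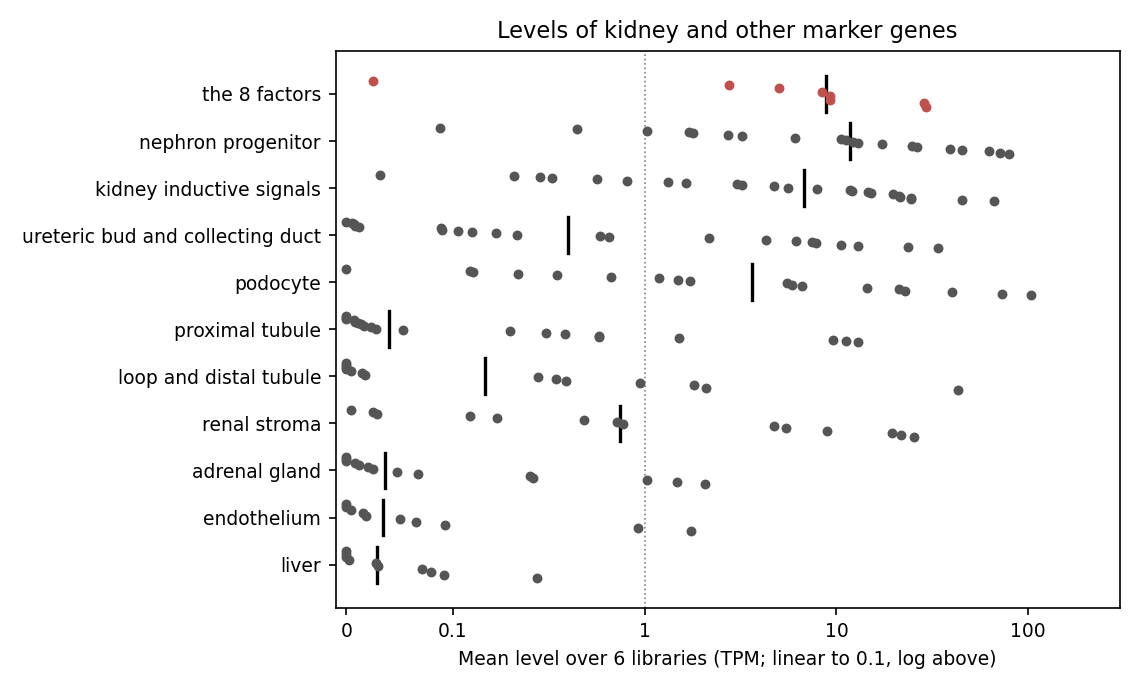
Mean level over the 6 libraries of each gene of the 8 factors, 7 kidney lists and 3 lists of other tissues (TPM, linear to 0.1 and logarithmic above); each point is a gene and the black bar is the median of its list. The medians are 11.7 TPM for nephron progenitor genes, 8.86 TPM for the 8 factors and 0.041 TPM for proximal tubule genes. The neuronal list and the blood and immune list, with medians of 2.90 and 0.177 TPM, are not drawn.

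No gene of these kidney lists passed the threshold. Over the 7 kidney lists, 132 genes other than the factors, 92 were tested and 0 passed in edgeR, DESeq2 or limma-voom. Their median log2 fold change was -0.071, and 59 of 92 were below 0. An unadjusted p below 0.05 was found for 4 of the 92, a share near the 4.76% of all tested genes, each with an adjusted p of 0.93 by edgeR: HOXD10 (log2 fold change -0.27), the signal BMP7 (-0.44), the matrix protein gene FRAS1 (-0.25) and the nuclear receptor ESRRG (-1.001). BMP7, which keeps nephron progenitors alive, stood at 21.0 ± 0.43 TPM with overexpression and 28.03 ± 4.61 TPM in wild type (SD, n = 3 each). The summed level of the 20 nephron progenitor genes was 434, 407 and 395 TPM in overexpression replicates 1, 2 and 3, against 465, 441 and 436 TPM in wild-type replicates 1, 2 and 3. The 2 ranges did not overlap, by a margin of 434 against 436 TPM. Ranges of the summed level did not overlap for 2 of the 7 kidney lists, this one and the inductive signals, and overlapped for 5. The summed level of the 8 factors was 92.6, 92.4 and 84.98 TPM with overexpression, against 96.9, 93.2 and 95.7 TPM in wild type, and did not overlap either. Summed levels were not tested. The 9.16% of tested genes with ranges that did not overlap refers to the CPM of single genes. It is thus no background for sums of TPM.

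Markers of other tissues were read in the same way. Of 14 adrenal genes, 0 reached 1 TPM in every library, and their summed level was 2.44, 7.17 and 11.4 TPM in overexpression replicates 1, 2 and 3, against 2.84 to 4.18 TPM in wild type. CHGA and CHGB, proteins of secretory granules, made the highest adrenal values, at 3.06 ± 2.84 and 2.23 ± 1.62 TPM with overexpression, against 1.06 ± 0.51 and 0.728 ± 0.26 TPM in wild type, and CYP11B1 and DBH had no count. Of 10 liver genes 0 reached 1 TPM, with ALB at 0.413 ± 0.20 TPM with overexpression and 0.137 ± 0.03 TPM in wild type, and of 10 endothelial genes 1, ESAM, did, at 1.79 ± 0.48 TPM with overexpression and 1.69 ± 0.51 TPM in wild type, with KDR at 1.05 ± 0.28 TPM with overexpression and 0.797 ± 0.24 TPM in wild type. Of 12 blood and immune genes only LCP1 reached 1 TPM in every library, at 102 ± 2.32 TPM with overexpression and 102 ± 15.9 TPM in wild type, and CD68 stood at 3.30 ± 2.59 TPM with overexpression and 1.41 ± 0.32 TPM in wild type. Of 16 neuronal genes 9 (56.3%) did, led by the neurofilaments NEFL, at 78.7 ± 9.48 TPM with overexpression and 82.5 ± 5.53 TPM in wild type, and NEFM, at 41.5 ± 6.38 TPM with overexpression and 50.1 ± 11.7 TPM in wild type. NEFL, NEFM and NEFH were below 0 in log2 fold change, and the 8 other tested neuronal genes were above 0. Among the 8 were SYN1, a synaptic vesicle protein gene (1.59), TUBB3, a neuronal tubulin gene (0.78), SYP (0.51), SNAP25 (0.48) and INA (0.34). SYN1 stood at 0.221, 1.913 and 1.715 TPM in overexpression replicates 1, 2 and 3, against 0.360 to 0.508 TPM in wild type. TUBB3 stood at 5.32, 13.97 and 20.75 TPM, against 5.74 to 9.72 TPM. Overexpression replicate 1 thus lay below every wild-type library for SYN1 and TUBB3, and within the wild-type range for SYP, SNAP25 and INA. The median log2 fold change over the neuronal list was 0.48. Summed neuronal levels were 194, 216 and 244 TPM in overexpression replicates 1, 2 and 3, against 193, 210 and 243 TPM in wild-type replicates 1, 2 and 3. Of 26 tested genes of these 5 lists 0 passed in edgeR, DESeq2 or limma-voom, and 3 (CHGB, SYN1 and ALB) had an unadjusted p below 0.05, against 4.76% of all tested genes. Their median log2 fold change was 0.43, and 7 of 26 were below 0. The part of these cell type markers in the levels of the factors was not tested.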

How the data were processed

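Per the labels' protocols, libraries of 6 HEK293 samples came from rRNA-depleted total RNA and TruSeq RNA v2 reagents; this kit does not mark the strand. Trim Galore 0.4.4 and build hg38 are named in the submitters' processing notes; for aligner, counter and annotation a name was not given in the sources used here. Raw counts were deposited for 60564 genes. The deposited log2 table covers 35778 genes, and each value is log2(c × count + 1), with c fixed for a library.

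The main test was edgeR 4.0.16 under R 4.3.3. Genes had to pass filterByExpr (minimum count 10), libraries were scaled by TMM, group was the only term of a robust quasi-likelihood fit, and p was adjusted by Benjamini-Hochberg over 18797 genes, with a threshold of 0.05. DESeq2 1.42.0, limma 3.58.1 (voom, and on the log2 table), other scalings and filters, a replicate block and removal of each library were alternatives, and the fit was tested on simulated data. The SE of a log2 fold change is its size over the square root of F. TPM used the union of exons in GENCODE 29 (GRCh38), matched by ID for 58457 genes with 99.95% of counts. Total counts ran from 32121527 to 59963713, and the median SE over tested genes was 0.174 on the log2 scale.

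Same-numbered libraries deviated together from their group means (correlations over genes 0.242, 0.327 and 0.19 for numbers 1, 2 and 3). The numbers were therefore taken as pairing them, on the evidence of the data alone. The main fit did not use this pairing, so its intervals and p-values leave it out. With the replicate block, 1563 genes had an unadjusted p below 0.05 by edgeR, against 895 in the main fit. Adjusted p of the tested factors then ran from 0.658 (SIX2) to 0.921 (EYA1) by edgeR. No pair of replicates was a repeat of 1 library: chi-square per degree of freedom was at least 17.8.

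The members and lists were chosen with earlier results of these data known. Named by rule were the 8 factors, neighbours that overlap them or start within 5 kb on the other strand, the 2 highest genes and the smallest unadjusted p of each list, genes past the threshold, and the 3 genes nearest in pattern to SALL1 and SIX2. Other genes were named after their values were seen. Some genes of the rule and lists are not reported here.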

Additional observations from a re-analysis of the deposited data

How the results depend on the processing

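The count of genes past the threshold, 2 in edgeR, was 9 in DESeq2, 1 with the replicate block, and 1 to 3 when each library was left out. The other scalings and filters and the log2 table gave 2 each and limma-voom 3. No kidney factor passed under any of these, 0 in each, and the block changed no other call. The number of factors at 1 TPM or more in every library stayed at 7 with thresholds of 0.5 and 2 TPM, with the longest transcript as length, and without each library.

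Over 15 alternatives per factor, 101 of 105 log2 fold changes kept their sign. EYA1 ran from -0.060 to 0.14 when a library was left out, with -0.060 without overexpression replicate 2. An alternative chosen after seeing the data left out overexpression replicates 2 and 3. In CPM the libraries removed were the 2 lowest for SIX2, PAX2, LHX1 and SALL1, which fixes the direction of the shift for those genes. They were not the 2 lowest for WT1, EYA1 and GATA3. In that fit LHX1 was 0.12, SALL1 0.035 and SIX2 0.11, and the median of the tested factors 0.028. That fit assumes a single library to vary like the others. SIX2 ranged from -0.53 to 0.11 and PAX2 from -0.34 to -0.020. With 159 to 299 counts per library, PAX2 and SIX2 were the least deeply counted of the tested factors.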
